A study of Mus musculus with 6 samples.

Results

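The respiratory chain genes are the protein-coding genes of complexes I to V of oxidative phosphorylation. They were chosen by symbol alone, as the genes whose names begin with Nduf and a letter A, B, C, S or V, with Uqcr, with Cox and a number from 4 to 8, with Atp5 or with mt-, together with Sdha, Sdhb, Sdhc and Sdhd. This gave 106 of the 48709 genes of the count table, 93 in the nuclear genome and 13 in the mitochondrial genome. After the expression filter 105 could be tested, 92 nuclear and 13 mitochondrial. The gene left out was Cox8b, an isoform of complex IV, which had 1 to 9 counts per library.

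In the inner mitochondrial membrane, complex I (NADH dehydrogenase) and complex II (succinate dehydrogenase) pass electrons to ubiquinone, complex III (the cytochrome bc1 complex) passes them to cytochrome c, and complex IV (cytochrome c oxidase) to oxygen. The proton gradient built on the way drives complex V, the ATP synthase. The circular mitochondrial DNA encodes core subunits of complexes I, III, IV and V, whereas all of complex II and most subunits of the others come from nuclear genes whose products are imported. In the fetal ovary these complexes serve both the proliferating or meiotic germ cells and the somatic cells around them.

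The data are polyadenylated RNA from whole 13.5 dpc ovaries of wild type CD1 mice, in 3 control libraries and 3 APAP+IBU libraries. Pregnant females received by gavage acetaminophen (APAP, 30 mg/kg/day) alternating with ibuprofen (IBU, 15 mg/kg/day), or ethanol as diluent, from 10.5 to 13.5 dpc. Each library came from its own pool of gonads, so that an animal cannot be followed, and the exposure label names both drugs where sample titles name IBU. In such bulk tissue, fewer cells of a type and less RNA per cell cannot be told apart.

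Total counts ran from 37811968 to 48954631 per library, and levels are given as CPM (counts scaled to the TMM-normalised library size), in the order of replicates 1, 2 and 3. The ovarian genes Wnt4 and Foxl2 were detected in every library, Wnt4 at 106 to 203 CPM and Foxl2 at 0.944 to 8.15 CPM. Genes of other tissues were also detected. The mean log2 CPM of 12 spermatid genes, among them the protamine Prm1, was 1.62 to 3.28 in controls and -2.39 to -1.25 after exposure, and none of the 12 was at 0 throughout. That of 14 liver genes was 2.51, 3.48 and 5.47 in controls and 1.98, 3.32 and 6.28 after exposure, highest in replicate 3 of each group, while that of 12 erythroid genes ran from 6.73 to 7.73 in controls and from 5.42 to 7.84 after exposure. Of 6 testis somatic genes 5 could be tested, with a median log2 fold change of -1.28, and Insl3 was the gene with a library at 0. The medians were 0.01 for 8 ovarian somatic genes and 0.04 for 8 germ cell genes, 0.56 for the liver genes and -0.60 for the erythroid genes. The germ cell genes differed in both directions, from -0.49 for Pou5f1 to 0.63 for Sycp3, with 4 below 0 and 4 above. The ovarian somatic genes ran from -0.25 to 0.29, also with 4 below 0 and 4 above. The part of other tissues in the results below was not tested. Control replicate 3 stood apart from the other controls in most results, so the fit to replicates 1 and 2 of each group is given as well.

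The nuclear and the mitochondrial genes of the chain differed in opposite directions between the group means, by less than the range of the control libraries. The 93 nuclear genes held 1.41, 1.26 and 0.965% of all counts in controls and 0.928, 0.971 and 1.14% in exposed ovaries, that is 1.21 ± 0.226% against 1.01 ± 0.11% (SD, n = 3 each). The 13 mitochondrial genes held 1.2, 1.2 and 1.72% in controls and 1.72, 1.61 and 1.81% in exposed ovaries, or 1.37 ± 0.297% against 1.71 ± 0.0968% (SD, n = 3 each). In control replicates 1 and 2 the nuclear share exceeded the mitochondrial one, whereas in control replicate 3 and in all exposed libraries the mitochondrial share was the larger. The counts on mitochondrial genes were 0.851, 0.955 and 1.78 times those on nuclear genes in controls and 1.85, 1.66 and 1.59 times in exposed ovaries. Control replicate 3 thus lay within the exposed range, and the groups overlapped.

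**Figure D1:**
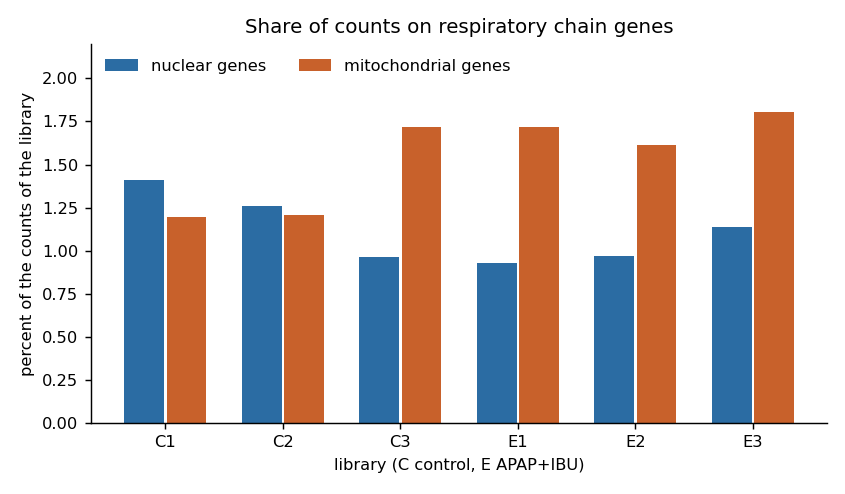
Percent of the counts of each library (vertical axis) on the 93 nuclear (blue) and 13 mitochondrial (orange) respiratory chain genes in control libraries C1 to C3 and APAP+IBU libraries E1 to E3. The blue bar is the taller in C1 and C2 only, and C3 resembles the exposed libraries.

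No respiratory chain gene passed an adjusted p of 0.05 over the 6 libraries in edgeR's quasi-likelihood test, in which 0% of all 20167 tested genes passed in either direction. All p-values given here are two-sided and from that test with Benjamini-Hochberg adjustment over all tested genes, unless another test is named. DESeq2 called 1 of the 105 genes, mt-Atp8, against 0.868% of all genes with an adjusted p. At an unadjusted p under 0.05 in edgeR, 11 of 92 nuclear genes were lower in exposed ovaries and 0 higher, and of the 13 mitochondrial genes 1, mt-Atp8, was higher and 0 lower, while 3.21% of all tested genes passed as lower and 3.0% as higher. The log2 fold change was below 0 for 88 of the 92 nuclear genes, beside 50.6% of all tested genes. The median log2 fold change was -0.31 over the nuclear genes, 0.01 over the mitochondrial genes and -0.0047 over all tested genes. By complex, the median over the nuclear genes was -0.30 for the 44 genes of complex I, -0.08 for the 4 of complex II, -0.38 for the 8 of complex III, -0.39 for the 19 of complex IV and -0.34 for the 17 of complex V.

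The spread among the control libraries was wider than this difference. The median log2 CPM of the 92 nuclear genes was 6.86, 6.57 and 5.82 in controls and 5.90, 6.11 and 6.36 after exposure. Control replicate 1 was the highest library for 78 of them, beside 29.0% of all tested genes. Control replicate 3 was the lowest of all libraries for 44, beside 21.4% of all tested genes. It lay below both other controls for 86 genes (42.1% of all tested genes). Control replicates 1 and 2 were both above every exposed library for 74 of the 92 (25.1% of all tested genes), and control replicate 3 was so for 8. Accordingly 5 nuclear genes, Cox7b, Cox7a2, Atp5h, Atp5b and Sdha, had all 3 exposed libraries below all 3 controls, a pattern shown by 5.92% of all tested genes. Without control replicate 3, 8 of 92 nuclear genes had a lower level after exposure at an adjusted p under 0.05, against 2.26% of all genes tested there, and none did when any other library was left out in turn. They were Atp5h, Atp5j2, Atp5k, Cox5a, Cox5b, Cox8c, Ndufa3 and Uqcrh. The median log2 fold change of the nuclear genes was -0.52 without that library, -0.11 without control replicate 1 and -0.45 without APAP+IBU replicate 3. Of all 105 genes, 12 had an unadjusted p under 0.05 with the 6 libraries, 77 without control replicate 3, 2 without control replicate 1 or without APAP+IBU replicate 1, and 3 without replicate 2 of either group. Among the exposed libraries, replicate 3 was the highest for 79 of the 92 genes.

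**Figure D2:**
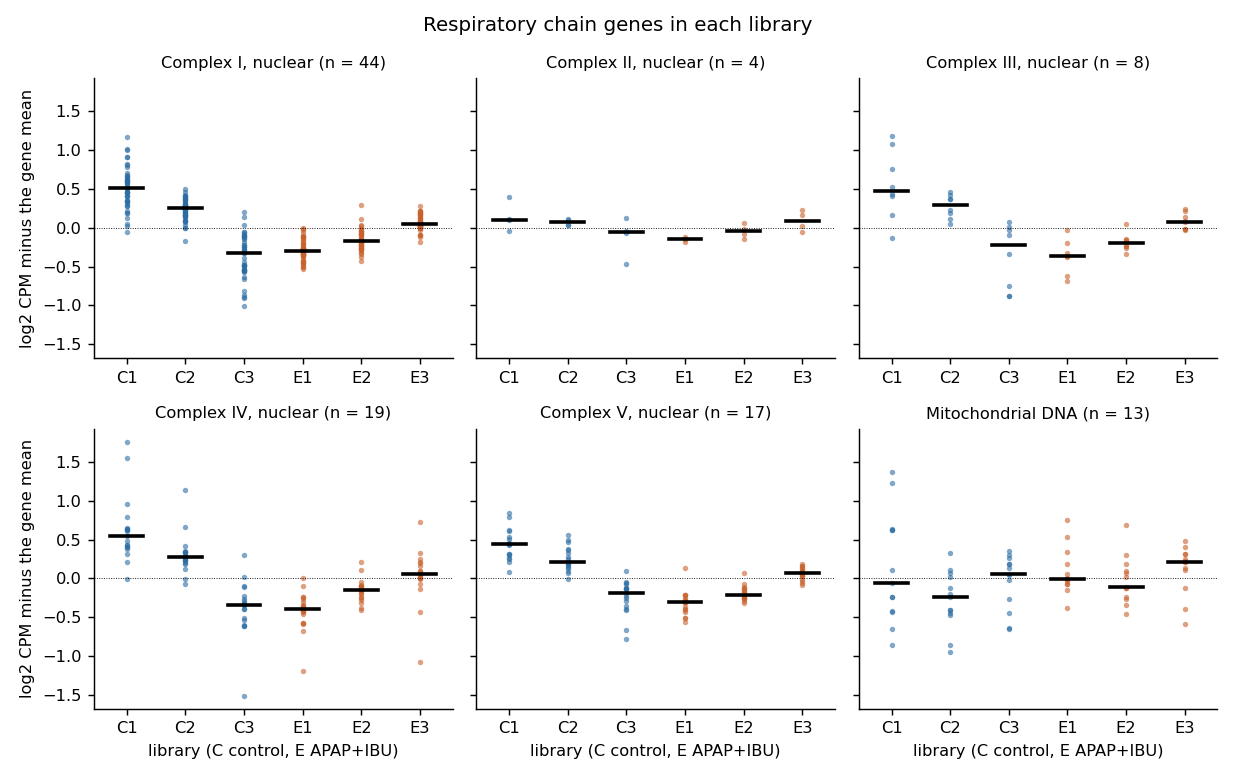
Log2 CPM of each tested gene minus its mean over the 6 libraries (vertical axis), by library (C1 to C3 control, E1 to E3 APAP+IBU), with a panel for the nuclear genes of each complex and 1 for the mitochondrial genes. Points are genes and black bars are medians. The medians of C1 and C2 lie above 0 and those of C3 below 0 for the nuclear genes of complexes I, III, IV and V.

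Complex I, the largest of the chain, had 44 tested nuclear genes, of which 43 had a log2 fold change below 0. Complex I had 2 genes lower at an unadjusted p under 0.05, or 4.55%, near the 3.21% of all tested genes. Its 7 core subunits, which carry the flavin and the iron-sulfur clusters, had a median log2 fold change of -0.29, the 29 accessory subunits -0.30 and the 8 assembly factors, which are not part of the finished complex, -0.21. Ndufb10 had 73.7, 51.6 and 35.5 CPM in the controls and 30.9, 31.2 and 42.8 CPM in the exposed libraries. This accessory subunit of the membrane arm was highest in control replicate 1, and control replicate 3 lay among the exposed libraries, with a log2 fold change of -0.62 ± 0.27 (SE, unadjusted p = 0.0489, adjusted p = 0.692). The control libraries held 62.2, 63.2 and 42.5 CPM of Ndufa5 and the exposed libraries 36.3, 37.2 and 48.2 CPM. Ndufa5, an accessory subunit of the matrix arm, had a log2 fold change of -0.46 ± 0.19 (SE, unadjusted p = 0.0431, adjusted p = 0.692), and its groups overlapped through APAP+IBU replicate 3 alone.

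Nuclear core subunits are described for their role, beyond the rule by which genes were named. Levels of Ndufs1 reached 209, 216 and 239 CPM in the controls and 214, 234 and 192 CPM under APAP+IBU. This largest subunit, an iron-sulfur protein that takes part in electron entry, differed little and had a log2 fold change of -0.05 ± 0.13 (SE, unadjusted p = 0.681, adjusted p = 0.889). Ndufv1 was at 281, 238 and 152 CPM in controls and at 169, 175 and 205 CPM after exposure. Ndufv1, which binds NADH and the flavin, was highest in control replicate 1 and lowest in control replicate 3, with a log2 fold change of -0.29 ± 0.22 (SE, unadjusted p = 0.226, adjusted p = 0.705). Ndufs3, Ndufs7 and Ndufs8, which lie in the arm that leads electrons to ubiquinone, had log2 fold changes of -0.37 (Ndufs3), -0.40 (Ndufs7) and -0.29 (Ndufs8), and Ndufv2, the partner of Ndufv1, of -0.19, with unadjusted p of 0.104 or more.

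Among the accessory subunits, Ndufb8 of the membrane arm had the highest level per length, 163 CPM per kb of transcript as a mean of the 6 libraries. Ndufb8 was at 164, 130.1 and 89.3 CPM in controls and at 84.7, 88.6 and 109 CPM after exposure, a log2 fold change of -0.44 ± 0.22 (SE, unadjusted p = 0.0816, adjusted p = 0.692). For Ndufa1, a small accessory subunit encoded on the X chromosome, the order was different. For Ndufa1 the levels were 59.8, 63.5 and 39.3 CPM in controls and 50.2, 67.5 and 54.9 CPM in exposed ovaries, so that control replicate 3 was the lowest library and the groups overlapped widely. Its log2 fold change of 0.09 ± 0.20 (SE, unadjusted p = 0.684, adjusted p = 0.89) was the highest of all nuclear genes and lay within the spread between libraries. The assembly factors were scarce, the highest per length being Ndufaf1 with 24.6 CPM per kb. The control libraries held 44.9, 38.8 and 33.5 CPM of Ndufaf1 and the exposed libraries 33.8, 30.4 and 32.4 CPM, a log2 fold change of -0.28 ± 0.15 (SE, unadjusted p = 0.0974, adjusted p = 0.692). Ndufaf8 had 16.7, 10.3 and 3.71 CPM in the controls and 5.44, 6.7 and 7.41 CPM in the exposed libraries, and at -0.65 ± 0.47 (SE, unadjusted p = 0.2, adjusted p = 0.7) its log2 fold change was the lowest of the complex, with control replicate 3 as the lowest library.

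Complex II, which also serves the citric acid cycle, had the smallest median difference of the complexes. Sdha had 399.7, 379.8 and 405 CPM in the controls and 336, 337 and 375 CPM in the exposed libraries. Every exposed library held less of this flavoprotein subunit than every control, with a log2 fold change of -0.18 ± 0.12 (SE, unadjusted p = 0.176, adjusted p = 0.699). The nearest libraries, control replicate 2 and APAP+IBU replicate 3, were almost level. For the mean of 3 against 3 libraries that do not overlap, an exact two-sided permutation test gives p = 0.1, the smallest that such a design allows. Levels of Sdhb reached 132, 108 and 73 CPM in the controls and 88.6, 99.9 and 113 CPM under APAP+IBU. This iron-sulfur subunit had a log2 fold change of -0.06 ± 0.21 (SE, unadjusted p = 0.795, adjusted p = 0.933). For Sdhc the levels were 181, 183 and 161 CPM in controls and 153, 177 and 162 CPM in exposed ovaries. The membrane anchor Sdhc showed a log2 fold change of -0.10 ± 0.12 (SE, unadjusted p = 0.447, adjusted p = 0.791). Sdhd was at 126, 133 and 125 CPM in controls and at 119.7, 123 and 152 CPM after exposure. This other membrane anchor had a log2 fold change of 0.04 ± 0.13 (SE, unadjusted p = 0.777, adjusted p = 0.927) and overlapping groups. Per length, Sdha had 128, Sdhd 105, Sdhb 89.7 and Sdhc 53.5 CPM per kb. The counts on the 4 genes made up 0.0792 ± 0.00214% of the controls' counts and 0.0754 ± 0.0043% of those after exposure (SD, n = 3 each).

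For complex III, 7 of 8 nuclear genes had a log2 fold change below 0, and 2 had an unadjusted p under 0.05. At that p, 3.21% of all tested genes were lower. Uqcrh had 259.6, 262 and 183 CPM in the controls and 152, 155 and 193 CPM in the exposed libraries. Uqcrh, the hinge protein that binds cytochrome c1, was the nuclear gene of the complex with the highest level per length (367 CPM per kb), and its log2 fold change was -0.50 ± 0.18 (SE, unadjusted p = 0.0231, adjusted p = 0.692). Control replicate 3 was below APAP+IBU replicate 3, the only overlap of the groups. For Uqcrb the levels were 112, 95.1 and 81.6 CPM in controls and 64.8, 70.6 and 82.2 CPM in exposed ovaries. For this small subunit near the ubiquinone site the log2 fold change was -0.41 ± 0.16 (SE, unadjusted p = 0.0308, adjusted p = 0.692), and 25.5% of its 50-base windows also occur in other annotated transcripts, mostly processed pseudogenes, so that its reads could be split. The subunits that act in catalysis or form the core were given for their role. Levels of Uqcrfs1 reached 87.4, 84.8 and 78.4 CPM in the controls and 67.9, 70.2 and 82.2 CPM under APAP+IBU. For this Rieske iron-sulfur protein the log2 fold change was -0.19 ± 0.12 (SE, unadjusted p = 0.169, adjusted p = 0.699). The core proteins Uqcrc1 and Uqcrc2 had log2 fold changes of -0.31 and 0.0013 and the small subunits Uqcr10, Uqcr11 and Uqcrq of -0.36, -0.61 and -0.63, with unadjusted p of 0.201 or more. The gene mt-Cytb, the mitochondrial subunit of this complex, is described with the mitochondrial genes.

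In complex IV all 19 tested nuclear genes had a log2 fold change below 0, and 3 had an unadjusted p under 0.05. The share of all tested genes lower at that p was 3.21%. Cox7b (ENSMUSG00000031231, chrX:106015700-106022450 of GRCm38) showed the smallest p of all nuclear genes. Cox7b had 128, 108 and 117 CPM in the controls and 63.7, 72.7 and 98.9 CPM in the exposed libraries. All exposed libraries were below all controls, control replicate 3 included, and the log2 fold change was -0.58 ± 0.18 (SE, unadjusted p = 0.0107, adjusted p = 0.686), from a control mean of 118 ± 10.2 CPM to an exposed mean of 78.4 ± 18.3 CPM (SD, n = 3 each). Cox7a2 (ENSMUSG00000032330, chr9:79755361-79759878), the isoform of subunit VIIa found in most tissues, was the other gene of the complex without overlap. The control libraries held 228, 200.02 and 171 CPM of Cox7a2 and the exposed libraries 125, 142 and 169.7 CPM, a log2 fold change of -0.45 ± 0.16 (SE, unadjusted p = 0.0233, adjusted p = 0.692), although the nearest libraries, control replicate 3 and APAP+IBU replicate 3, were almost level. Cox4i1, the regulatory subunit that binds early in assembly, had the highest level per length of the nuclear genes of complex IV, 519 CPM per kb. Cox4i1 was at 567, 473 and 261 CPM in controls and at 291, 314 and 415 CPM after exposure. Control replicate 3 was the lowest library for Cox4i1, and the log2 fold change was -0.35 ± 0.28 (SE, unadjusted p = 0.243, adjusted p = 0.711).

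The remaining nuclear subunits of complex IV without isoforms, Cox5a, Cox5b, Cox6c and Cox7c, are given for completeness. Levels of Cox5a reached 134, 123 and 80.1 CPM in the controls and 73.2, 93.1 and 87 CPM under APAP+IBU. Cox6c was at 282, 259.9 and 171 CPM in controls and at 178, 192 and 220.2 CPM after exposure. In both, control replicates 1 and 2 were above the exposed libraries, and control replicate 3 was not. The log2 fold changes were -0.41 for Cox5a, -0.43 for Cox5b, -0.27 for Cox6c and -0.23 for Cox7c, with unadjusted p of 0.0759 or more.

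Complex IV is the part of the chain with tissue isoforms, and the ovary expressed the general ones. Per length, Cox4i1 stood at 519 and Cox4i2, the isoform of lung and low oxygen, at 3.7 CPM per kb. Cox6a1 had 120.3 and the heart and muscle isoform Cox6a2 0.708 CPM per kb. Subunit VIIa came mainly from Cox7a2 with 262 and from Cox7a2l, which joins complexes III and IV, with 176 CPM per kb, against 30.4 for the heart and muscle isoform Cox7a1. The order was the same in every library for these pairs. Cox8a had 114 CPM per kb, and Cox8b, an isoform of heart and muscle, 0.281. Ndufa4, once placed in complex I and now known as a subunit of complex IV, had 416 CPM per kb, and its relative Ndufa4l2, induced by low oxygen, 3.48. The log2 fold changes of Cox4i2, Cox6a1, Cox6a2, Cox6b1, Cox7a1, Cox7a2l, Cox8a, Ndufa4 and Ndufa4l2 ran from -0.54 for Cox7a1 to -0.23 for Ndufa4, with unadjusted p from 0.0684 (Cox6b1) and adjusted p of 0.692 or more.

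The testis isoforms Cox8c, Cox6b2 and Cox7b2 were also counted. Cox8c had 5.22, 2.43 and 1.06 CPM in the controls and 0.965, 1.42 and 0.728 CPM in the exposed libraries. The level of Cox8c (ENSMUSG00000043319, chr12:102899316-102900526) was highest in control replicates 1 and 2, and control replicate 3 overlapped the exposed libraries. Its log2 fold change of -1.48 ± 0.56 (SE, unadjusted p = 0.0299, adjusted p = 0.692) was the lowest of the respiratory chain genes. The spermatid genes showed the same order of the controls, with a mean log2 CPM of 3.28, 1.66 and 1.62 in controls and of -1.25, -2.39 and -1.83 after exposure, all 12 of them higher in every control library, and their part in the difference of Cox8c was not tested. Without control replicate 1 the log2 fold change of Cox8c was -0.74. Cox7b2 was at 2.15, 1.47 and 1.27 CPM in controls and at 1.48, 1.59 and 1.09 CPM after exposure, a log2 fold change of -0.23 ± 0.32 (SE, unadjusted p = 0.493, adjusted p = 0.809). Cox6b2 was the best expressed testis isoform, with 72.2 CPM per kb against 257 for Cox6b1. For Cox6b2 the levels were 49.2, 46.3 and 32.4 CPM in controls and 36.8, 37.3 and 37.7 CPM in exposed ovaries. The log2 fold change of Cox6b2 was -0.19 ± 0.17 (SE, unadjusted p = 0.293, adjusted p = 0.73), and its exposed libraries were nearly level at a value between the controls.

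Complex V had 17 tested nuclear genes, 16 of them with a log2 fold change below 0 and 4 with an unadjusted p under 0.05. Among all tested genes, 3.21% were lower at that p. Atp5b had 1471, 1354 and 1326 CPM in the controls and 1011, 1035 and 1299 CPM in the exposed libraries. Atp5b, the catalytic beta subunit of the F1 head, had the highest level per length of all nuclear genes, 652 CPM per kb, and its log2 fold change was -0.31 ± 0.15 (SE, unadjusted p = 0.0729, adjusted p = 0.692) without overlap of the groups. Control replicate 3 and APAP+IBU replicate 3 were the nearest libraries of the groups. The control libraries held 156, 157 and 120.1 CPM of Atp5h and the exposed libraries 102, 112 and 118 CPM. For Atp5h, a subunit of the peripheral stalk, the groups did not overlap either, although control replicate 3 and APAP+IBU replicate 3 were almost level. The log2 fold change of Atp5h was -0.39 ± 0.14 (SE, unadjusted p = 0.0269, adjusted p = 0.692). Of its 50-base windows, 19.9% occur in other transcripts, mainly a processed pseudogene. Atp5j2, Atp5k and Atp5mpl, small membrane subunits named here after their values were seen, had log2 fold changes of -0.47, -0.63 and -0.45 (adjusted p = 0.692 for each), and in all of them control replicate 3 lay within the exposed range.

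The other subunits of the F1 head and its stalks were given for their role. Levels of Atp5a1 reached 1022, 967 and 829 CPM in the controls and 718, 732 and 911 CPM under APAP+IBU. Atp5a1, the alpha subunit that alternates with beta in the head, had a log2 fold change of -0.26 ± 0.16 (SE, unadjusted p = 0.141, adjusted p = 0.698). Atp5e was at 280.5, 228 and 102 CPM in controls and at 114, 136 and 181 CPM after exposure. For Atp5e, the small epsilon subunit of the central stalk, the log2 fold change was -0.50 ± 0.34 (SE, unadjusted p = 0.182, adjusted p = 0.699). The other central stalk genes Atp5c1 and Atp5d had log2 fold changes of -0.21 and -0.47, and the peripheral stalk genes Atp5f1, Atp5j and Atp5o of -0.13, -0.19 and -0.40, with unadjusted p of 0.0956 or more.

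The membrane ring of complex V is built from subunit c, which Atp5g1, Atp5g2 and Atp5g3 encode as the same mature protein. Atp5g3 was the highest with 349 CPM per kb, followed by Atp5g2 with 236 and Atp5g1 with 145, and this order held in every library. Their log2 fold changes were -0.35, -0.18 and -0.23, with unadjusted p of 0.108, 0.449 and 0.33 and adjusted p of 0.692 or more. For Atp5g2, 38.3% of the 50-base windows recur in other transcripts, so its level is uncertain. Atp5s was at 10.6, 9.87 and 9.07 CPM in controls and at 10.9, 9.14 and 10.3 CPM after exposure. Atp5s, a coupling factor B homologue rather than a core subunit, had a log2 fold change of 0.04 ± 0.17 (SE, unadjusted p = 0.822, adjusted p = 0.941), and no library stood out.

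The 13 mitochondrial genes fell into 2 classes by level, and the classes followed the sequence that annotated nuclear transcripts share with them. For mt-Co2, mt-Co3, mt-Atp6, mt-Nd4l and mt-Nd3, between 98% and all of their 50-base windows recur in other annotated transcripts, foremost the unprocessed pseudogenes Gm28661, Gm28437, Gm10925, Gm10222 and Gm28438, which lie in a row on chromosome 1 of GRCm38. Over its full length each copy was identical to the mitochondrial gene, except that of mt-Nd3, which differed at 1 of 345 bases. The start of mt-Nd3 and of Gm28438 is shown because this is the sole place where they differ over the bases compared. The capital marks the substitution T3C, the mitochondrial base first, with positions counted from 1 at the 5′ end of the gene, and the sequences are those of the GENCODE M21 transcripts.
mt-Nd3: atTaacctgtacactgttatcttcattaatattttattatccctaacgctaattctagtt
Gm28438: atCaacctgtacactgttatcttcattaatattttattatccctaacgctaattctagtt

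These 5 genes had 1.5 (mt-Nd3) to 11.2 (mt-Nd4l) CPM per kb, while the other 8 mitochondrial genes had 175 (mt-Nd6) to 3734 (mt-Co1) CPM per kb. Few reads were counted on these 5 copies on chromosome 1 too, from 34 to 87 per library for Gm28438 and from 0 to 13 for the other 4. A further copy of part of mt-Co2, Gm13341 on chromosome 2, which holds 35.3% of its windows, had 232, 324 and 385 counts in controls and 404, 333 and 361 after exposure, against 55 to 102 for mt-Co2 itself. How the counting treated reads with several positions is not given in the sources used here. Genes with a lower share of such windows, mt-Nd4 with 62.2% and mt-Co1 with 51.1%, had 626 and 3734 CPM per kb. Levels of the 5 genes are therefore not compared with the rest. The median log2 fold change of the 8 others, 0.32, was higher than the 0.01 of all 13 (this choice of genes was made after the shared windows were seen).

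**Figure D3:**
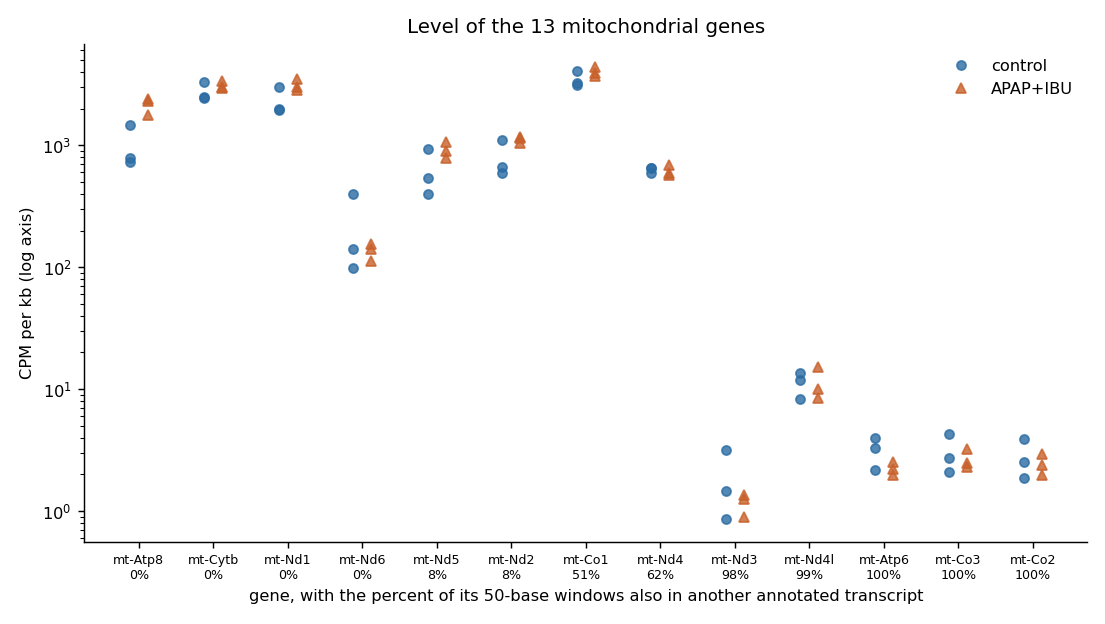
Level of each mitochondrial gene in CPM per kb (vertical log axis) in 3 control (circles) and 3 APAP+IBU (triangles) libraries. Genes are ordered by the percent of their 50-base windows that occur in another annotated transcript, printed rounded under each name, and the 5 genes at the right, from mt-Nd3 on, lie far below the others.

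The gene mt-Atp8 (ENSMUSG00000064356, chrM:7766-7969 of GRCm38), a small membrane subunit of complex V, had the smallest p of all 105 genes. mt-Atp8 had 159, 149.7 and 298 CPM in the controls and 488, 467 and 360.4 CPM in the exposed libraries. Every exposed library exceeded every control, as in 4.78% of all tested genes, and the log2 fold change was 1.12 ± 0.28 (SE, unadjusted p = 0.00369, adjusted p = 0.381), from a control mean of 202 ± 82.9 CPM to an exposed mean of 438 ± 68.3 CPM (SD, n = 3 each). DESeq2 gave an adjusted p of 0.0134, while the other fits with all 6 libraries gave edgeR adjusted p from 0.0775 to 0.753. Without control replicate 3 the edgeR adjusted p of mt-Atp8 was 0.0372 (log2 fold change 1.504), and it was 0.331 to 1 when another library was left out. With control replicate 3 left out, 2.89% of all genes were called higher. The last 43 bases of mt-Atp8, in capitals below, are also the start of mt-Atp6. No annotated copy on chromosome 1 covers the rest, which is why the whole gene is shown. Between Gm10925 and Gm28661, the copies of mt-Atp6 and mt-Co2, lie 233 bases. Sequence outside annotated transcripts was not searched, so whether these bases hold a copy of mt-Atp8 was not tested.
mt-Atp8: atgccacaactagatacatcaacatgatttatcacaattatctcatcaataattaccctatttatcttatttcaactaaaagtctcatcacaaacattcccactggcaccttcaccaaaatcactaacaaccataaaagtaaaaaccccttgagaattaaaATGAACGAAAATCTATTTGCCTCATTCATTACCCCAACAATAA

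Next to it on the same transcript lies mt-Atp6, a proton channel subunit of complex V. mt-Atp6 was at 2.73, 2.22 and 1.47 CPM in controls and at 1.73, 1.51 and 1.35 CPM after exposure, with a log2 fold change of -0.48 ± 0.31 (SE, unadjusted p = 0.155, adjusted p = 0.698), and 99.5% of its windows are in the copy Gm10925. The part of that copy, and of reads that span both genes, in the low level of mt-Atp6 was not tested.

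Of the 7 complex I genes in mitochondrial DNA, mt-Nd1, mt-Nd2 and mt-Nd5 had log2 fold changes above 0.4. mt-Nd1 had 1896, 1859 and 2887 CPM in the controls and 2889, 2709 and 3370.0 CPM in the exposed libraries. The control libraries held 610.4, 689 and 1151 CPM of mt-Nd2 and the exposed libraries 1213, 1087 and 1189.8 CPM. mt-Nd5 was at 989, 734 and 1705 CPM in controls and at 1927, 1637 and 1436 CPM after exposure. In all of these control replicates 1 and 2 were the lowest libraries, and control replicate 3 lay within or near the exposed range. The log2 fold changes were 0.43 ± 0.21 (SE, unadjusted p = 0.0715, adjusted p = 0.692) for mt-Nd1, 0.51 ± 0.24 (SE, unadjusted p = 0.0648, adjusted p = 0.692) for mt-Nd2 and 0.54 ± 0.30 (SE, unadjusted p = 0.104, adjusted p = 0.692) for mt-Nd5. For mt-Nd4 the levels were 824, 902 and 894 CPM in controls and 817, 790.0 and 946 CPM in exposed ovaries, and mt-Nd4 with a log2 fold change of -0.04 ± 0.13 (SE, unadjusted p = 0.787, adjusted p = 0.93) did not follow that order. The gene mt-Nd6 is the only one of the 13 on the other strand, where its end overlaps that of mt-Nd5. mt-Nd6 had 207, 73.5 and 51.5 CPM in the controls and 79.9, 58.6 and 73.6 CPM in the exposed libraries. Control replicate 1 stood far above the other libraries, and the log2 fold change of -0.65 ± 0.46 (SE, unadjusted p = 0.197, adjusted p = 0.7) became 0.18 without it. The strand setting of the counting is not given in the sources used here, so reads of mt-Nd6 and of the RNA opposite to it may not be separated.

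The most abundant genes of the chain per length were mt-Co1, the catalytic subunit of complex IV, mt-Cytb, the cytochrome b of complex III, and mt-Nd1. The control libraries held 4836, 4969 and 6255 CPM of mt-Co1 and the exposed libraries 5712, 6008 and 6835 CPM, a log2 fold change of 0.21 ± 0.17 (SE, unadjusted p = 0.254, adjusted p = 0.716). mt-Cytb had 2826, 2805 and 3786 CPM in the controls and 3453, 3373 and 3854 CPM in the exposed libraries, a log2 fold change of 0.18 ± 0.17 (SE, unadjusted p = 0.321, adjusted p = 0.745). In both genes control replicates 1 and 2 were the lowest libraries and control replicate 3 lay within the exposed range. The levels of mt-Co2, mt-Co3, mt-Nd3 and mt-Nd4l were 0.299 to 4.55 CPM over all libraries. Their log2 fold changes were -0.19, -0.18, -0.63 and 0.01, with unadjusted p of 0.259 or more and adjusted p of 0.717 or more. The mitochondrial rRNA genes, which are transcribed from the same strand, had log2 fold changes of 0.05 ± 0.15 (SE, unadjusted p = 0.72, adjusted p = 0.907) for mt-Rnr1 and 0.27 ± 0.15 (SE, unadjusted p = 0.0982, adjusted p = 0.692) for mt-Rnr2, in libraries selected for polyadenylated RNA, and both turned below 0 with the correction for length and GC content described next.

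Nuclear respiratory chain transcripts are short, and short protein-coding transcripts as a class had lower fold changes in these libraries. The median transcript length was 752 bases for the 92 nuclear genes and 2766 bases for the tested protein-coding genes. The 59 nuclear genes under 1000 bases had a median log2 fold change of -0.39, beside -0.28 for all 1272 tested protein-coding genes of that length. The 33 longer genes had -0.21, beside -0.0033 for all 14869 tested protein-coding genes of 1000 bases or more. Control replicate 1 exceeded control replicate 3 by a median of 1.004 log2 units over the short nuclear genes and of 0.68 over all short protein-coding genes. Across the 92 genes, Spearman's rho of the log2 fold change was 0.47 with transcript length and -0.43 with GC content, a description of genes measured in the same 6 libraries. After each library was corrected for length and GC content, the median of the nuclear genes was -0.18 and that of all tested genes -0.01, the rho was 0.15 with length and 0.24 with GC content, of the opposite sign to that before correction. In this fit 13 nuclear genes had an unadjusted p under 0.05, all lower (background 3.97% for higher and 5.79% for lower genes). For mt-Atp8 the corrected log2 fold change was 0.60 (adjusted p = 0.204). Over all 13 mitochondrial genes the corrected median was -0.12, from 0.01 before correction. Over the 8 with under 90% shared windows it was 0.11, from 0.32. Which of length, GC content and exposure bears on the difference cannot be told apart where they move together.

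**Figure D4:**
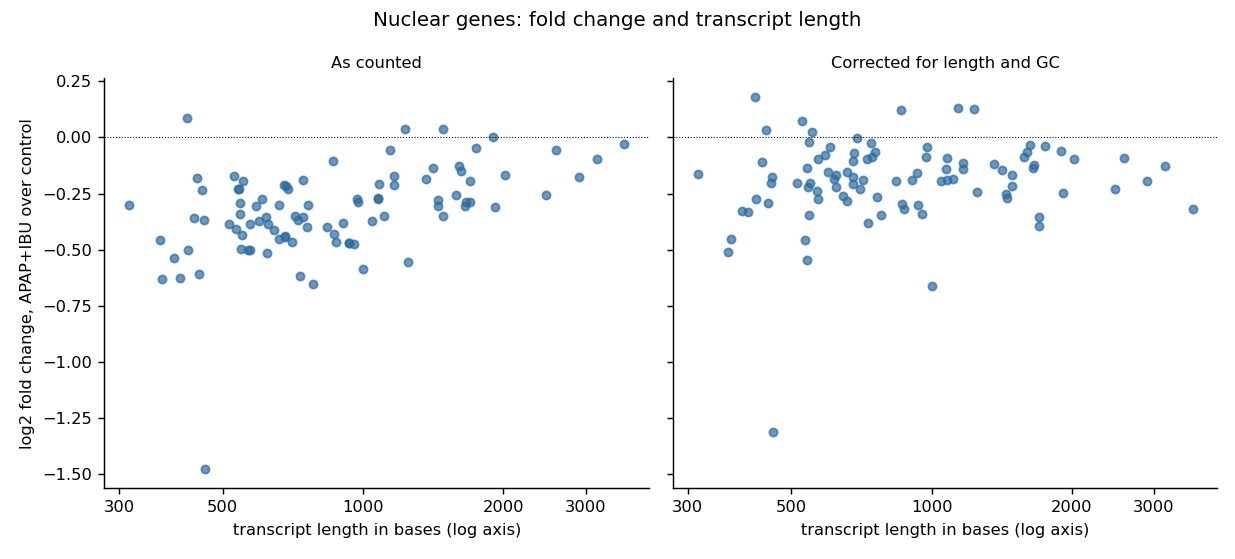
Log2 fold change of APAP+IBU over control (vertical axis) of the 92 nuclear genes against transcript length in bases (horizontal log axis), as counted (left) and after correction for length and GC content (right). The genes under 1000 bases have the lower median at the left (-0.39 against -0.21), and the difference by length is smaller at the right.

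With replicates 1 and 2 of each group only, a choice made with earlier results of these libraries known, the groups lay further apart. In edgeR's test 68 of 92 nuclear genes were lower in exposed ovaries at an adjusted p under 0.05 and 0 were higher, where 12.9% of all 20633 genes tested there were lower and 14.2% higher. At an unadjusted p under 0.05 they were 77 of 92, against 20.0% of those genes. The genes with a lower level at the adjusted p were 31 of 44 in complex I, 0 of 4 in complex II, 7 of 8 in complex III, 15 of 19 in complex IV and 15 of 17 in complex V. Within complex I they were 5 of 7 core subunits, 24 of 29 accessory subunits and 2 of 8 assembly factors. Uqcrh fell by 0.75 (adjusted p = 0.00623), Cox4i1 fell by 0.76 (adjusted p = 0.00684) and Ndufa5 fell by 0.75 (adjusted p = 0.00625) on the log2 scale. Sdha had a log2 fold change of -0.19 (adjusted p = 0.145), and Atp5b fell by 0.45 (adjusted p = 0.017). The mitochondrial genes mt-Atp8, mt-Nd5, mt-Nd2 and mt-Nd1 rose, with log2 fold changes of 1.65, 1.07, 0.84 and 0.60 (adjusted p = 0.00623, 0.00695, 0.00632 and 0.00851). With length and GC content corrected in these 4 libraries, 28 nuclear genes were called lower (background 7.44% lower and 5.98% higher), and the median of all 92 was -0.33. Of the mitochondrial genes, mt-Atp6, mt-Nd4 and mt-Nd6 were then lower, with log2 fold changes of -1.14, -0.76 and -1.71, and mt-Atp8 higher with 0.71 (adjusted p = 0.0434, 0.00745, 0.0372 and 0.0117). Without the correction none of the lower genes was called in these libraries. Their log2 fold changes were then -0.59 for mt-Atp6, -0.083 for mt-Nd4 and -0.997 for mt-Nd6 (edgeR adjusted p = 0.175, 0.564 and 0.117). The groups overlapped for mt-Nd6, and mt-Atp6 had only 69 to 104 counts per library. These fits leave out control replicate 3, which was near the exposed libraries. They also leave out APAP+IBU replicate 3, which was above the other exposed libraries for 79 of 92 nuclear genes. The p-values do not allow for that choice, and the counts hold for the 4 pools kept only.

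**Figure D5:**
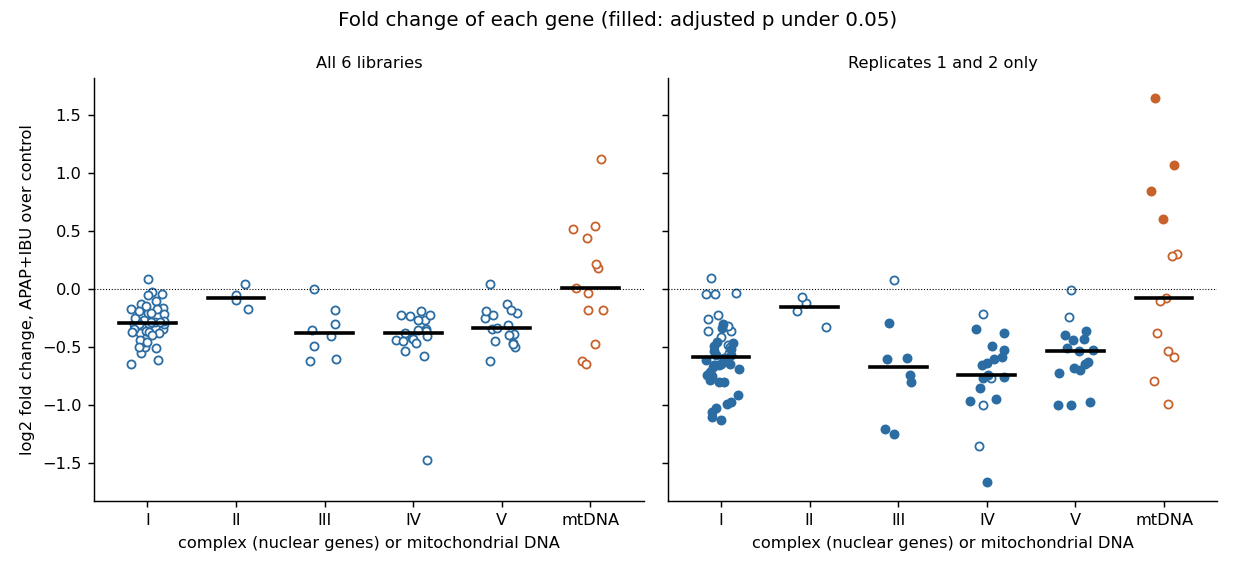
Log2 fold change of APAP+IBU over control (vertical axis) of each tested gene by complex (nuclear, blue) or in mitochondrial DNA (orange), for all 6 libraries (left) and for replicates 1 and 2 only (right). Filled points have an adjusted p under 0.05 and black bars are medians. No point is filled at the left, and 68 nuclear and 4 mitochondrial points are filled at the right.

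Many nuclear respiratory chain genes share promoter elements. Of the 93 nuclear genes, 76 had a window of 300 bases around the RefSeq start in the promoter table (GRCm38.p6). The motif GCGCA, any base and GCGC is bound by nuclear respiratory factor 1 (Nrf1). It was found on either strand in a window of 19 of these 76 genes (25%), against 7.17% of the 17492 genes with a window. The motif AAGATGGC of Yy1 was found in 11 of the 76 genes (14.5%, against 3.57%), and CCGGAAGT, of the ETS factors to which Gabpa belongs, in 5 (6.58%, against 5.69%). Some genes had several windows, and the 17492 genes were not matched to the 76 for GC content or level. To show the element, 60 bases from 1 gene each of complexes I, II, IV and V are given with the Nrf1 motif in capitals, all wholly before the start and on the strand of the gene. They are Ndufs5 (GRCm38.p6, chr4:123718250-123718309, minus strand), Sdha (chr13:74350304-74350363, minus strand), Cox6a1 (chr5:115349086-115349145, minus strand) and Atp5k (chr5:108434415-108434474, minus strand).
Ndufs5: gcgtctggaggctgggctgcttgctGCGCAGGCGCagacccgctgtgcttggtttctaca
Sdha: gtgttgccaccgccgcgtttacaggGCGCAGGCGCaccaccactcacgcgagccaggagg
Cox6a1: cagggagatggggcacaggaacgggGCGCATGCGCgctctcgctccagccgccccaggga
Atp5k: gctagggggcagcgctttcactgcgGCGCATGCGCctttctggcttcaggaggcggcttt

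Genes with and without the Nrf1 motif had like fold changes. The median log2 fold change over the 6 libraries was -0.31 for the 19 genes with it and -0.30 for the 56 tested genes with a window but no match. A match describes letters in a window and not binding. Of the regulators themselves, Nrf1 had a log2 fold change of -0.01 ± 0.12 (SE, unadjusted p = 0.905, adjusted p = 0.969), Gabpa of 0.30 ± 0.18 (SE, unadjusted p = 0.129, adjusted p = 0.692) and Yy1 of 0.17 ± 0.13 (SE, unadjusted p = 0.236, adjusted p = 0.71). Ppargc1a was at 1.6, 1.77 and 3.15 CPM in controls and at 4.06, 2.64 and 2.84 CPM after exposure, low counts for this coactivator of mitochondrial biogenesis, with a log2 fold change of 0.55 ± 0.34 (SE, unadjusted p = 0.144, adjusted p = 0.698). None of the 10 listed regulators had an unadjusted p under 0.05 over the 6 libraries.

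The neighbouring pathways gave these counts over the 6 libraries, read against 3.21% of all genes lower at an unadjusted p under 0.05. Of 41 tested assembly factors and electron carriers outside the symbol rule, 30 had a log2 fold change below 0, 1 was lower at that p and the median was -0.11. That gene was Pet100, an assembly factor of complex IV. Pet100 had 41.1, 30.5 and 19.9 CPM in the controls and 17.5, 19.9 and 20.9 CPM in the exposed libraries, a log2 fold change of -0.65 ± 0.25 (SE, unadjusted p = 0.0329, adjusted p = 0.692). Of 17 genes that copy, transcribe or process mitochondrial DNA, such as the polymerase gene Polrmt and the factor gene Tfam, 10 had a log2 fold change below 0, 0 passed, and the median was -0.06. Of 14 citric acid cycle genes 10 were below 0, 0 passed, and the median was -0.13. Of 14 glycolysis genes all were below 0, 3 were lower at that p, and the median was -0.33. These were the lactate dehydrogenase gene Ldha, the kinase gene Pgk1 and the mutase gene Pgam1. Their log2 fold changes were -0.38 ± 0.16 (SE, unadjusted p = 0.0462, adjusted p = 0.692) for Ldha, -0.41 ± 0.17 (SE, unadjusted p = 0.0452, adjusted p = 0.692) for Pgk1 and -0.42 ± 0.17 (SE, unadjusted p = 0.0369, adjusted p = 0.692) for Pgam1, each with control replicate 3 below the other controls.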

How the data were processed

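RNA-seq was made from 3 control and 3 APAP+IBU pools of ovaries with a stranded mRNA kit. The authors deposited raw read counts per gene, which per the labels and the submitters' processing notes were made with bcl2fastq 2.17.1.14, TopHat2 2.0.14, Bowtie2 2.1.0 and HTSeq 0.6.1 on mm10, with Ensembl 86 genes, and they tested them with DESeq2. The strand setting and the treatment of reads with several positions are not given in the sources used here.

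Groups came from the exposure label. Of 48709 gene IDs, 48349 matched GENCODE M21, which gave symbols, positions and transcript lengths. Counts were tested with edgeR 4.0.16 in R 4.3.3 (TMM, filterByExpr, glmQLFit, glmQLFTest, Benjamini-Hochberg), which left 20167 genes. Each SE given was derived as the absolute log2 fold change over the square root of the F statistic of that test. Counts were simulated from the mean levels and depths of these libraries, with 200 genes changed by 1.5 on the log2 scale. On them edgeR recovered 95% of these genes with 1.55% false calls, and DESeq2 1.42.0 recovered 91.5% with 7.58% false calls. The simulation gave every gene the same dispersion and held no difference between libraries of a group and no trend with length or GC content. Smaller changes were not simulated, so these rates do not hold for the differences found here. The p-values measure the spread between pools. Alternatives were DESeq2, other scalings and filters, a replicate block, each library left out, replicates 1 and 2 only, and a loess correction (span 0.3) of each library for transcript length and GC content. For shared sequence, 50-base windows of each gene's transcripts were looked up in all GENCODE M21 transcripts, and for motifs the promoter table from RefSeq (GRCm38.p6) was read on both strands. No correction was made for pools, since each library is its own.

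Members, lists, markers and fits were chosen with earlier results of these data known. Genes were named with values if mitochondrial, if of the highest level per length or among the 2 smallest p-values of their complex and role, if in a family with tissue isoforms, if called, if without overlap of the groups, or if among the 3 highest nuclear fold changes. Others are named where said or as part of a whole role group.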

Additional observations from a re-analysis of the deposited data

How the results depend on the processing

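No call was made with all 6 libraries in edgeR, and the count of respiratory chain genes with an adjusted p under 0.05 was 1 with DESeq2, 72 with replicates 1 and 2 only, 32 with these and the length and GC correction, and 0 to 11 when 1 library was left out, the 11 being without control replicate 3. The other scalings and filters and the replicate block gave 0. The count with an unadjusted p under 0.05 was 12 in the main fit, 84 with replicates 1 and 2 only, 69 with these and the correction, 3 with the replicate block, and 2 to 77 with a library left out, the 77 again without control replicate 3. The block of replicate numbers had little ground, since deviations of libraries with the same number correlated at -0.07, -0.02 and -0.04 over all genes. The cause of these differences was not tested. The median log2 fold change of the nuclear genes stayed below 0 in each alternative (-0.61 to -0.11) and was -0.27 with the replicate block. That of the mitochondrial genes lay on either side of 0 (-0.36 to 0.17).

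Of 83 genes given with values, 57 kept their sign in each of 18 alternatives that tested them. With replicates 1 and 2 only, the log2 fold change turned to -0.074 for Sdhd, -0.049 for Ndufa1, -0.0078 for Atp5s, -0.10 for mt-Nd4l, 0.096 for Ndufs1 and -0.013 for mt-Rnr1. With the correction as well it turned to 0.088 for Cox6b2, -0.47 for Atp5s, -0.12 for mt-Co1, -0.097 for mt-Cytb, -0.36 for mt-Nd4l, 0.048 for Sdhb, -0.089 for Uqcrc2, -0.63 for mt-Rnr1, -0.44 for mt-Rnr2 and 0.059 for Nrf1. With the replicate block it was -0.0073 for mt-Nd4l, and with block and correction 0.00045 for Atp5g1, 0.092 for Cox6a2, 0.020 for Cox6b2, -0.21 for Atp5s, 0.033 for Atp5g2, -0.018 for mt-Cytb, -0.15 for mt-Nd4l, 0.14 for Sdhb, -0.060 for Uqcrc2, -0.28 for mt-Rnr1, -0.14 for mt-Rnr2 and 0.073 for Nrf1. The correction alone gave 0.023 for Cox6b2, -0.22 for Atp5s, 0.034 for Atp5g2, -0.0096 for mt-Cytb, -0.12 for mt-Nd4l, 0.13 for Sdhb, -0.059 for Uqcrc2, -0.31 for mt-Rnr1, -0.16 for mt-Rnr2 and 0.073 for Nrf1. It was -0.025 for mt-Nd4l and -0.027 for Uqcrc2 with upper quartile factors, -0.0074 for mt-Nd4l and -0.014 for Uqcrc2 with library sizes of nuclear genes, -0.0051 for mt-Nd4l and -0.0099 for Uqcrc2 when each library needed 10 counts or more and 0.021 for Nrf1 with total counts. With a library left out, the values ran from -0.10 to 0.095 for Sdhd, -0.099 to 0.22 for Ndufa1, -0.91 to 0.67 for Cox6a2, -1.13 to 0.11 for Ndufa4l2, -0.38 to 0.022 for Cox7b2, -0.024 to 0.097 for Atp5s, -0.39 to 0.023 for Atp5g2, -0.41 to 0.15 for mt-Co2, -0.39 to 0.15 for mt-Co3, -0.97 to 0.027 for mt-Nd3, -0.14 to 0.0050 for mt-Nd4, -0.99 to 0.18 for mt-Nd6, -0.30 to 0.17 for mt-Nd4l, -0.14 to 0.0056 for Ndufs1, -0.76 to 0.028 for Ndufs7, -0.26 to 0.15 for Sdhb, -0.065 to 0.042 for Uqcrc2, -0.50 to 0.082 for Cox7c, -0.26 to 0.0019 for Atp5f1, -0.016 to 0.20 for mt-Rnr1 and -0.096 to 0.034 for Nrf1. The depth of 37811968 counts or more per library left levels under 1 CPM, as for mt-Nd3, with few counts, and each library stands for a pool whose animals were not told apart.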
